A study of Mus musculus with 3 samples.

Results

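The cubilin-megalin complex is an endocytic receptor system of absorptive epithelia, and its 5 components described here are the receptors Cubn (cubilin) and Lrp2 (megalin), the subunit Amn (amnionless), the adaptor Dab2 and the chaperone Lrpap1. They were taken as all probe sets whose only platform gene symbol is 1 of these names, which gave 14 probe sets of 5 genes, out of 34945 probe sets of 18193 genes. The genes were chosen on their measured log2 differences, being much lower in both mutants than in WT, so those differences are given as a description and without a test. Messenger RNA was measured in embryoid bodies, clusters in which embryonic stem cells begin to differentiate in suspension, collected on day 7. The RQ bodies carried human BRCA1 with the substitution R1699Q as the series' design text writes it, while the sample's own label writes R1669Q. The MI bodies carried human BRCA1 with M1652I, and the WT bodies carried wild-type human BRCA1. BRCA1 is a tumour suppressor known for its role in DNA break repair. All came from mouse cells of the strain labelled 129S7/SvEv Brd-Hprt b-m2, and feeder cells had been removed before the bodies were formed. The state of the mouse Brca1 alleles, the number of clones and any pooling of bodies are not given in the sources used here. Each genotype was measured on 1 Affymetrix mouse array. There is thus no replicate check and no p-value for any difference, and 3 arrays limit how precise a value can be.

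Cubilin is a very large peripheral protein with no membrane anchor of its own. Amnionless provides that anchor and carries cubilin to the apical surface, and megalin, a giant member of the LDL receptor family, works beside them. Dab2 links the cytoplasmic tails of such receptors to clathrin and AP-2, and Lrpap1, also called RAP, escorts megalin through the endoplasmic reticulum and keeps ligands off it on the way. In the mouse embryo the complex is best known from the visceral endoderm of the yolk sac, where it takes up nutrients, carriers and vitamins, and in the adult from the kidney proximal tubule.

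Levels are the deposited log2 signals per probe set, on which a difference of 1 equals 2-fold. A probe set was read in a comparison when the higher of the 2 arrays reached 6.31, the median value of the whole data set. The mean level was 6.60 on each array, but the spread was not equal. The standard deviation was 1.17 in RQ, 1.06 in MI and 1.17 in WT, and the median was 6.28, 6.35 and 6.29. The 18 hybridization spike probe sets, which read RNA added in the laboratory, were lower on both mutant arrays, with a median difference from WT of -0.64 in RQ (-1.38 to -0.42) and -0.80 in MI (-1.48 to -0.36). Mouse Brca1 gave no check of the labels, because the cells carry a human gene that the 4 mouse probe sets are not known to read; their differences from WT were -0.26 to 0.03 in RQ and -0.52 to 0.15 in MI.

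Every one of the 5 genes was at least 2-fold lower in both mutants than in WT on the probe set with its highest mean level. Of all 12226 genes read for RQ against WT, 1.49% were 2-fold lower or more and 1.68% were 2-fold higher. Of the 12786 read for MI against WT, 2.44% were lower and 0.516% higher by that limit. Since the genes were picked for being low, nothing is drawn from that contrast. Over the 5 genes the median difference was -2.59 in RQ and -2.37 in MI, beside 0.01 and 0.06 over all genes read. Of the 12226 genes ordered from the lowest difference in RQ, Cubn stood at place 1, Dab2 at 7, Lrp2 at 20, Lrpap1 at 59 and Amn at 75. Of the 12786 in MI, Cubn stood at place 2, Dab2 at 13, Lrp2 at 24, Lrpap1 at 47 and Amn at 89. Embryoid bodies are mixtures, so fewer cells of a type and less RNA per cell cannot be told apart.

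**Figure D1:**
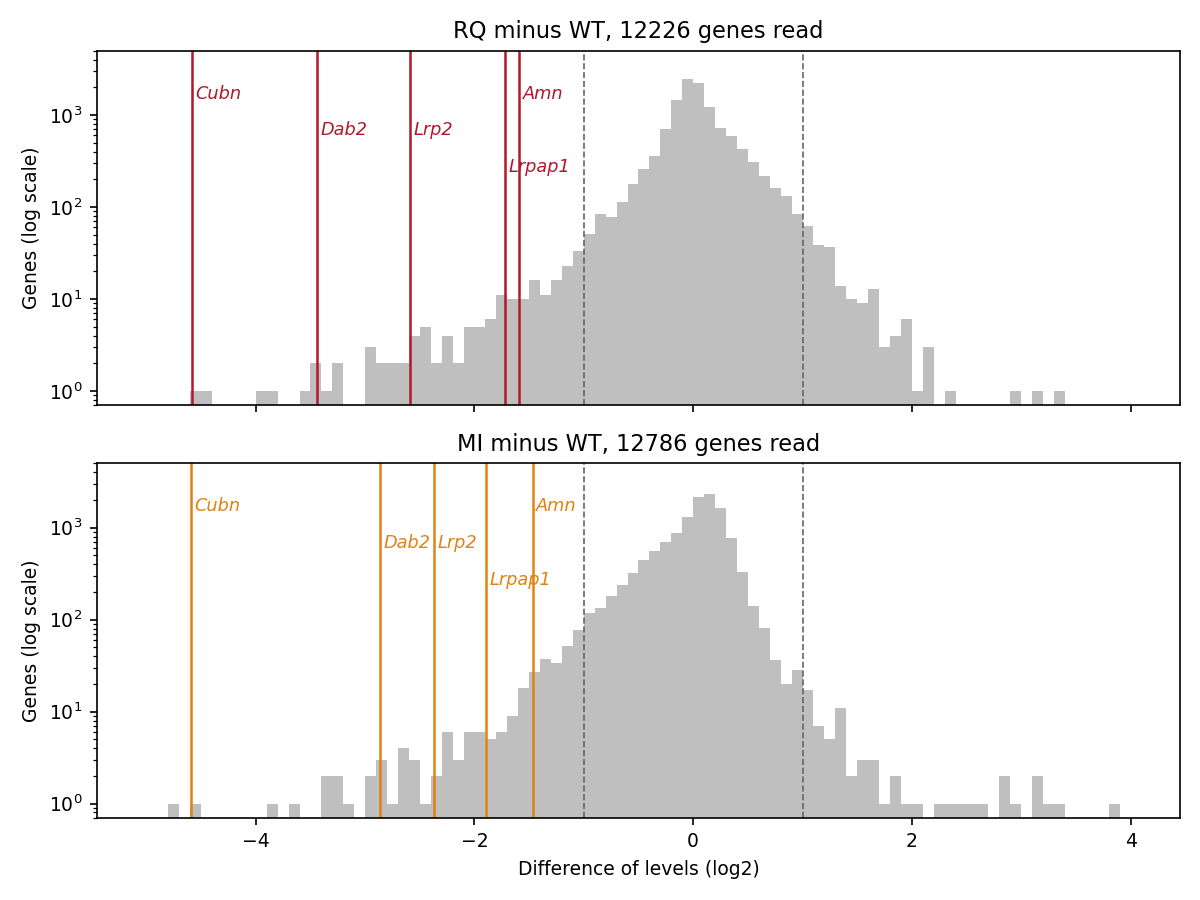
Histograms of the difference in level (log2, horizontal axis) from WT for all genes read, RQ above and MI below, with the number of genes on a log axis and the 5 complex genes as labelled vertical lines. Dashed lines mark 2-fold, and each complex gene lies to the left of the lower one in both panels.

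Cubn encodes the receptor that binds the intrinsic factor-vitamin B12 complex, albumin, apolipoprotein A-I and the vitamin D binding protein. Its probe set 1452270_s_at read 6.09 in RQ and 6.08 in MI, against 10.67 in WT. The probe set 1426990_at read 5.45 in RQ and 5.47 in MI, against 9.05 in WT. Both probe sets were thus high on the WT array and below the limit for reading on both mutant arrays. The differences were -4.58 in RQ and -4.60 in MI on 1452270_s_at (23.9-fold and 24.2-fold lower) and -3.60 and -3.58 on 1426990_at (12.1-fold lower in RQ). Signals this low are close to background, so the true ratio may be larger than these values. The _s_at suffix marks a probe set that can match transcripts of more than 1 gene, while 1426990_at carries no such mark. The 2 probe sets differ in size of effect and not in direction.

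The promoter of Cubn is shown because this gene was among the lowest of all genes read. The window is RefSeq sequence of build GRCm38.p6 from 250 bases before the gene's start to 50 after it, at chr2:13491827-13492126 on the minus strand. Capitals mark matches, on either strand, to any of 7 motifs: GATA (spelled AGATAA, or spelled TGATAA, or spelled AGATAG, or spelled TGATAG), an HNF1 core (GTTAAT), FOX (spelled TGTTTAC, or spelled TGTTTGC), SOX (spelled ACAATG, or spelled ACAAAG), the TATA box (spelled TATAAA), the GC box (spelled GGGCGG) and the CCAAT box. No matches overlapped in the windows of the 5 genes. None of these letters occurs in the Cubn window, which is therefore all in lower case.
Cubn promoter: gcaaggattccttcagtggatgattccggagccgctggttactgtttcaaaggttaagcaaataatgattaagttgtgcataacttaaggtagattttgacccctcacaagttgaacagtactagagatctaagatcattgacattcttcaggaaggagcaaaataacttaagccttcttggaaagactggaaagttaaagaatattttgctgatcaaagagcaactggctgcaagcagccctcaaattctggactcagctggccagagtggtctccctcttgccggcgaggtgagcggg
Among 32851 windows of the same length, 29.8% hold the GATA letters, 7.10% the HNF1 core, 8.48% the FOX, 28.6% the SOX and 13.6% the TATA letters, 35.7% a GC box and 37.4% a CCAAT box. A missing match says only that these letters are not in this window.

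Lrp2 encodes megalin, which binds lipoproteins, carriers of vitamins A and D, and many filtered proteins. Its probe set 1452320_at read 5.89 in RQ and 6.10 in MI, against 8.47 in WT, which is 6.01-fold lower in RQ and 5.17-fold lower in MI. The probe set 1427133_s_at read 6.33 in RQ and 6.34 in MI, against 7.39 in WT, and lay just inside the 2-fold limit with -1.06 in each mutant. The third probe set, 1445901_at, read 6.05 in RQ and 6.16 in MI, against 6.14 in WT. It stayed below the limit for reading on every array, so it carries no reading of the gene in these bodies. With the mean of all 3 sets the difference was -1.25 in RQ and -1.14 in MI. The megalin promoter at chr2:69585980-69586279, on the minus strand, holds 2 GC boxes and no other match, and its GC content is 65.0%, beside a median of 52.7% over all windows.

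Amn has 1 probe set, 1417920_at, which read 5.35 in RQ and 5.47 in MI, against 6.94 in WT. It was 3.01-fold lower in RQ and 2.77-fold lower in MI. Both mutant levels were under the limit for reading and under the lower quartile of their arrays (5.85 in RQ and 5.92 in MI), while the WT level was just above the upper quartile of its array (6.90). The Amn promoter is shown for comparison with that of Cubn, since the products of these genes form 1 receptor. It lies at chr12:111270846-111271145 on the plus strand in the same build and is 62.3% GC, beside 44.3% for Cubn. Its capitals mark a CCAAT box and a GC box, both on the opposite strand.
Amn promoter: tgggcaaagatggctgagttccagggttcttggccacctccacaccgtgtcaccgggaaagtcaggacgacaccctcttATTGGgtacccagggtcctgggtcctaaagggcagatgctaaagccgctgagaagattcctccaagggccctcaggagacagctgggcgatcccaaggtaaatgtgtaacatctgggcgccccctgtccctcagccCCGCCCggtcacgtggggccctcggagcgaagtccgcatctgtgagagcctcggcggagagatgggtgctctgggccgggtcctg

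**Figure D2:**
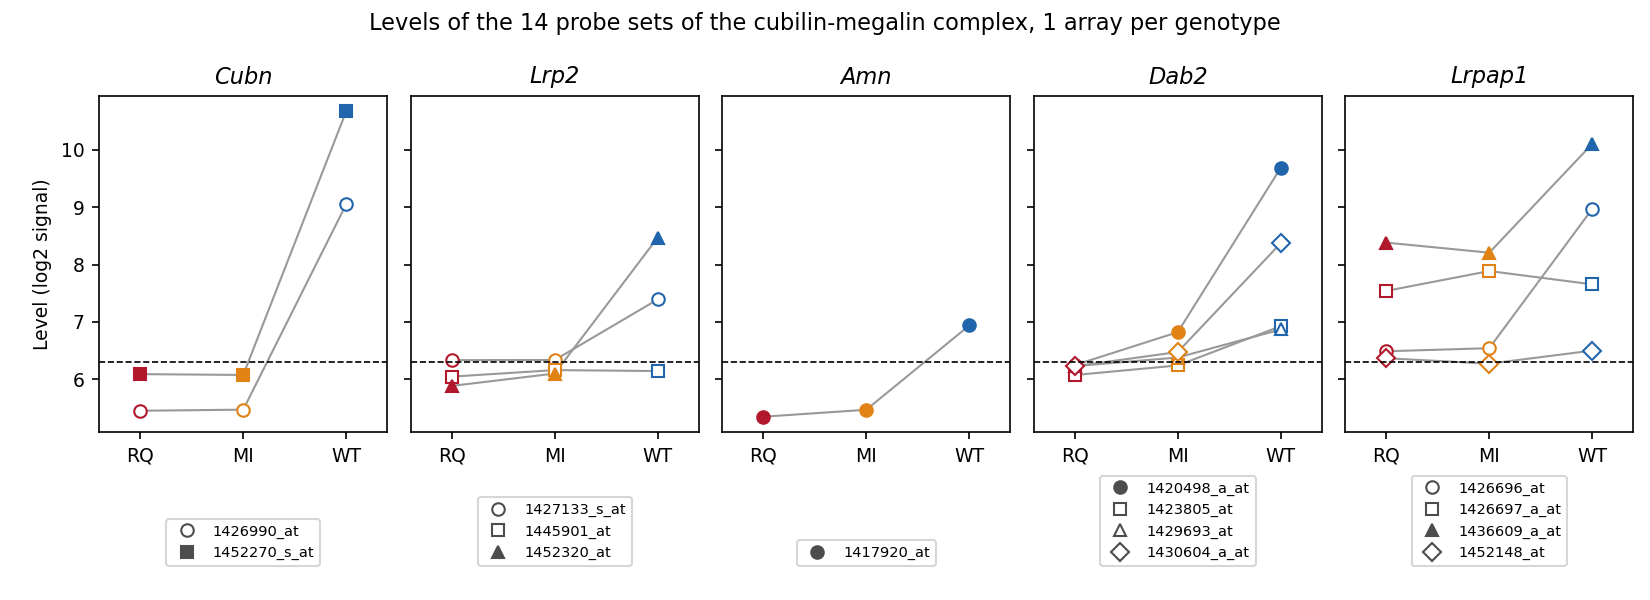
Level (log2 signal, vertical axis) of each of the 14 probe sets on the RQ, MI and WT arrays, 1 panel per gene, with 1 array per genotype. Filled symbols are the probe set with the highest mean of its gene, grey lines join the values of 1 probe set, and the dashed line is the limit for reading (6.31); the filled symbols of all 5 genes lie highest on the WT array.

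Dab2, the clathrin adaptor, is also made in other cells and is a known early gene of the extraembryonic endoderm. The probe set 1420498_a_at read 6.25 in RQ and 6.82 in MI, against 9.69 in WT, which is 10.9-fold lower in RQ and 7.28-fold lower in MI. The probe set 1430604_a_at read 6.23 in RQ and 6.48 in MI, against 8.37 in WT, with differences of -2.15 and -1.90. The _a_at suffix marks sets that match several transcripts of the same gene. The 2 sets without it were dim in WT and short of 2-fold. The set 1423805_at read 6.08 in RQ and 6.24 in MI, against 6.93 in WT, and 1429693_at read 6.23 in RQ and 6.38 in MI, against 6.87 in WT. Their differences were -0.85 and -0.64 in RQ and -0.69 and -0.49 in MI, and the set 1423805_at was the nearest outside the limit in both comparisons. All 4 sets were lower in both mutants than in WT. In RQ all 4 lay under the limit for reading, as 1423805_at did in MI, so the size of the Dab2 difference in RQ is less well known. Without sets that match several transcripts Dab2 would be represented by 1429693_at and would not reach 2-fold in either mutant, and with the mean of all 4 sets its difference was -1.77 in RQ and -1.48 in MI.

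RefSeq gives Dab2 a pair of promoter windows, at chr15:6299539-6299838 and chr15:6386498-6386797, both on the plus strand. The upstream window is shown because it alone, of the 6 windows of these genes, holds GATA letters. In the embryo GATA6 and GATA4 are known factors of extraembryonic endoderm. Among all 32851 windows 29.8% hold these letters, so a single window of 6 is no excess. The match was picked out after the search, and binding was not tested. Capitals mark TGATAA at bases 72 to 77 and AGATAA, on the opposite strand, at bases 265 to 270, counted from the 5′ end of the window.
Dab2 upstream promoter: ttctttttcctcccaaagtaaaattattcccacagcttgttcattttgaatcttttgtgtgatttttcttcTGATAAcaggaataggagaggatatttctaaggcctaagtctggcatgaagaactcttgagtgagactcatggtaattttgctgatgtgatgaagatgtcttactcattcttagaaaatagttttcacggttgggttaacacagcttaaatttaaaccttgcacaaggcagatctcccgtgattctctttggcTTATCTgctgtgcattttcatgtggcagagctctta
The downstream window holds the HNF1 core once and no GATA letters, and its GC content is 59.3%, beside 37.7% in the upstream window. Which start was used in these bodies cannot be read from the arrays.

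Lrpap1 encodes the chaperone, which every cell that makes receptors of the LDL family uses and which is not specific to endoderm. Its probe set 1436609_a_at read 8.38 in RQ and 8.21 in MI, against 10.10 in WT, and was 3.30-fold lower in RQ and 3.72-fold lower in MI. The probe set 1426696_at read 6.49 in RQ and 6.54 in MI, against 8.97 in WT, which is 5.58-fold and 5.38-fold lower. The other two sets did not follow. The set 1426697_a_at read 7.54 in RQ and 7.89 in MI, against 7.66 in WT, and 1452148_at read 6.37 in RQ and 6.27 in MI, against 6.50 in WT. Their differences ran from -0.23 to 0.23, the highest being that of 1426697_a_at in MI. The sets that disagree include 3 annotated to the same transcript record, so the size of the Lrpap1 difference depends on the probe set. With the mean of all 4 sets it was -1.11 in RQ and -1.08 in MI. Of the 5 representing sets, 1436609_a_at was the only one above the limit for reading on all 3 arrays. Its promoter at chr5:35105650-35105949, on the minus strand, holds 5 GC boxes and no other match.

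Over all 14 probe sets, 13 were read against WT, and 9 were at least 2-fold lower in each mutant. These were both sets of Cubn, 2 of 3 of Lrp2, the set of Amn, 2 of 4 of Dab2 and 2 of 4 of Lrpap1. Among all probe sets read, 1.74% passed that limit in RQ and 2.61% in MI. All 14 were below 0 in RQ, and 12 were in MI. Of the 13 sets read, 8 in RQ and 6 in MI reached the limit on the WT array alone, among them both sets of Cubn, the brightest of Lrp2 and that of Amn. A set that enters in that way had to be lower in the mutant, so these counts support nothing by themselves, and the single WT array serves in both comparisons. The spikes went the same way, with medians of -0.64 in RQ and -0.80 in MI. The differences of the 5 representing sets were each below the lowest spike difference in RQ (-1.38). In MI that of Amn (-1.47) was close to the lowest spike difference (-1.48), and the other 4 were below it. What the spikes contribute to these values was not tested.

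**Figure D3:**
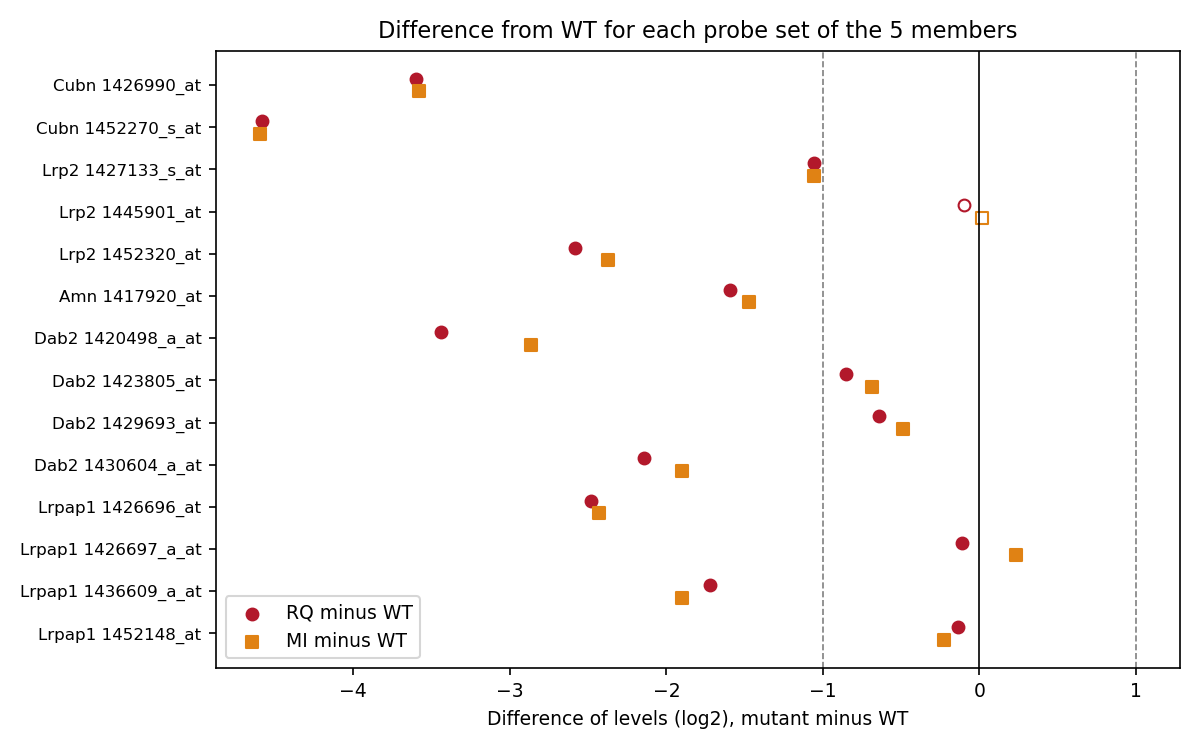
Difference in level from WT (log2, horizontal axis) for each probe set of the 5 genes, with circles for RQ minus WT and squares for MI minus WT. Dashed lines mark 2-fold, and open symbols mark the Lrp2 set that was not read; 9 of the 14 sets lie past 2-fold lower for each mutant, and those that do not belong to Lrp2, Dab2 and Lrpap1.

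None of the 5 genes was 2-fold apart between RQ and MI, where 0.508% of 12800 genes read were at least 2-fold lower and 1.98% at least 2-fold higher in RQ. Dab2 and Lrpap1 alone could be read in this comparison, since Cubn, Lrp2 and Amn lay under the limit on both arrays. Dab2 read 6.25 in RQ and 6.82 in MI, a difference of -0.57 that rests on an RQ level under the limit, and Lrpap1 differed by 0.18. With the arrays quantile-normalized again the Lrpap1 value was -0.13 and its direction is not settled. Over all genes the balance of this comparison depends on scaling, with 253 higher and 65 lower genes as deposited and 116 and 106 after quantile normalization again. For MI against WT the split was 66 higher and 312 lower as deposited, and 107 and 193 after that step.

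The lists of genes that follow are counted on the probe set with the highest mean of each gene, and other sets can differ from it. No other receptor of the LDL family was 2-fold lower. Of 14 genes listed, 13 were on the arrays and 10 were read, and none was 2-fold higher or lower in either mutant. Their median difference was 0.03 in RQ and -0.06 in MI. Lrp11 had the largest difference, with 8.27 in RQ and 6.80 in MI, against 7.41 in WT, and stood 2-fold apart between the mutants (1.46). Sorl1, a sorting receptor, read 8.82 in RQ and 7.97 in MI, against 8.37 in WT. Lrp2bp, which is named for its binding to megalin and was added after its values were seen, has 4 probe sets, and the brightest read 6.77 in RQ and 6.88 in MI, against 6.73 in WT.

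Among known or likely cargo of cubilin and megalin, 29 of 32 listed genes were on the arrays. Of the 19 read in RQ 4 were at least 2-fold lower and none higher, and of the 22 read in MI 3 were lower and none higher. The medians were -0.31 in RQ and 0.08 in MI. Apoe, a lipid carrier, read 7.91 in RQ and 6.94 in MI, against 10.58 in WT. Cst3, the protease inhibitor cystatin C, read 8.31 in RQ and 8.48 in MI, against 10.04 in WT. Both were lower in both mutants, with log2 differences of -2.67 and -3.65 for Apoe and of -1.73 and -1.56 for Cst3. Clu (clusterin) read 9.12 in RQ and 9.47 in MI, against 10.18 in WT, on its brightest set, and its other sets differed more, down to -2.30 in RQ and -1.88 in MI. B2m, the MHC class I light chain, read 7.15 in RQ and 10.54 in MI, against 9.70 in WT, with differences of -2.56 in RQ and 0.84 in MI. Mdk, the growth factor midkine, was 2-fold lower in MI (-1.54) and differed by -0.46 in RQ. The classical yolk sac cargo carriers were dim, with Alb at 6.15 in RQ and 6.41 in MI, against 6.21 in WT, and Apoa1 at 6.27 in RQ and 6.25 in MI, against 6.23 in WT.

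The machinery that receives the receptors on the inside was counted on the brightest set of each gene. Of 29 genes of the clathrin coat and its adaptors on the arrays, 28 were read in RQ and 27 in MI, and none was past 2-fold on its brightest set, with medians of -0.06 and -0.05. Other sets of 2 of these genes, picked out after their values were seen, were past it. The clathrin heavy chain Cltc differed by -1.40 in RQ and -1.21 in MI on its other set, against -0.45 and -0.27 on the brightest. For the AP-2 subunit Ap2a2 the 4 sets read ran from -1.50 to -0.45 in RQ and from -1.06 to -0.84 in MI. Ap2s1, which is also a subunit of AP-2, differed by -0.46 in RQ and -0.85 in MI, and the membrane-bending protein Fcho2 by 0.98 in RQ and -0.19 in MI. Of 33 genes for sorting, recycling and acidification of endosomes, 31 were read in each comparison, 2 being at least 2-fold lower in RQ and 4 in MI, and none higher. Their medians were -0.11 in RQ and -0.28 in MI. Rab11a, a GTPase of recycling endosomes, read 9.76 in RQ and 9.74 in MI, against 10.94 in WT, while its other set was short of 2-fold in both mutants (-0.07 and -0.59). The lysosomal membrane protein Lamp2 was lower in RQ (-1.10) and not past 2-fold in MI (-0.18). The proton pump subunit Atp6v0d1 (-1.13), the retromer subunit Vps26a (-1.07) and Rab4a (-1.01) were lower in MI, with -0.68, -0.48 and -0.60 in RQ.

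Among genes of the apical surface a single gene passed 2-fold on its brightest set. Of 19 genes, 11 were read in RQ and 12 in MI, and in each mutant this gene was Podxl. Podxl, the sialomucin podocalyxin of apical membranes, read 7.09 in RQ and 7.05 in MI, against 8.57 in WT, and its other set differed by -0.67 and -0.52. The 3 sets of Crb3, a protein of apical polarity, ran from -1.19 to -0.29 in RQ and from -0.90 to -0.09 in MI, the brightest set being the least different. Of the 13 genes of vitamin B12 handling 11 were read in each comparison, and none was past 2-fold on its brightest set. Tcn2, the plasma carrier of the vitamin, differed by -0.51 in RQ and -0.23 in MI on that set, the smallest difference of its 4 sets read. Its set 1447800_x_at read 6.36 in RQ and 6.48 in MI, against 7.36 in WT, and was just past 2-fold lower in RQ and short of it in MI (-0.88). For Mtrr, methionine synthase reductase, the differences were 0.72 in RQ and 0.02 in MI. Of 12 chaperones of the endoplasmic reticulum, all read, none was past 2-fold in RQ and Ppib was lower in MI (-1.07). Their medians were -0.33 in RQ and -0.45 in MI. Bright control sets were lower by like amounts. Those of Gapdh ran from -0.25 to -0.23 in RQ and from -0.56 to -0.46 in MI. Those of beta-actin ran from -0.38 to -0.27 in RQ and from -0.71 to -0.51 in MI. The dimmer control sets of the transferrin receptor ran from 0.35 to 0.97 in RQ and from -0.22 to 0.10 in MI. What a shift of bright sets contributes to the lists was not tested.

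**Figure D4:**
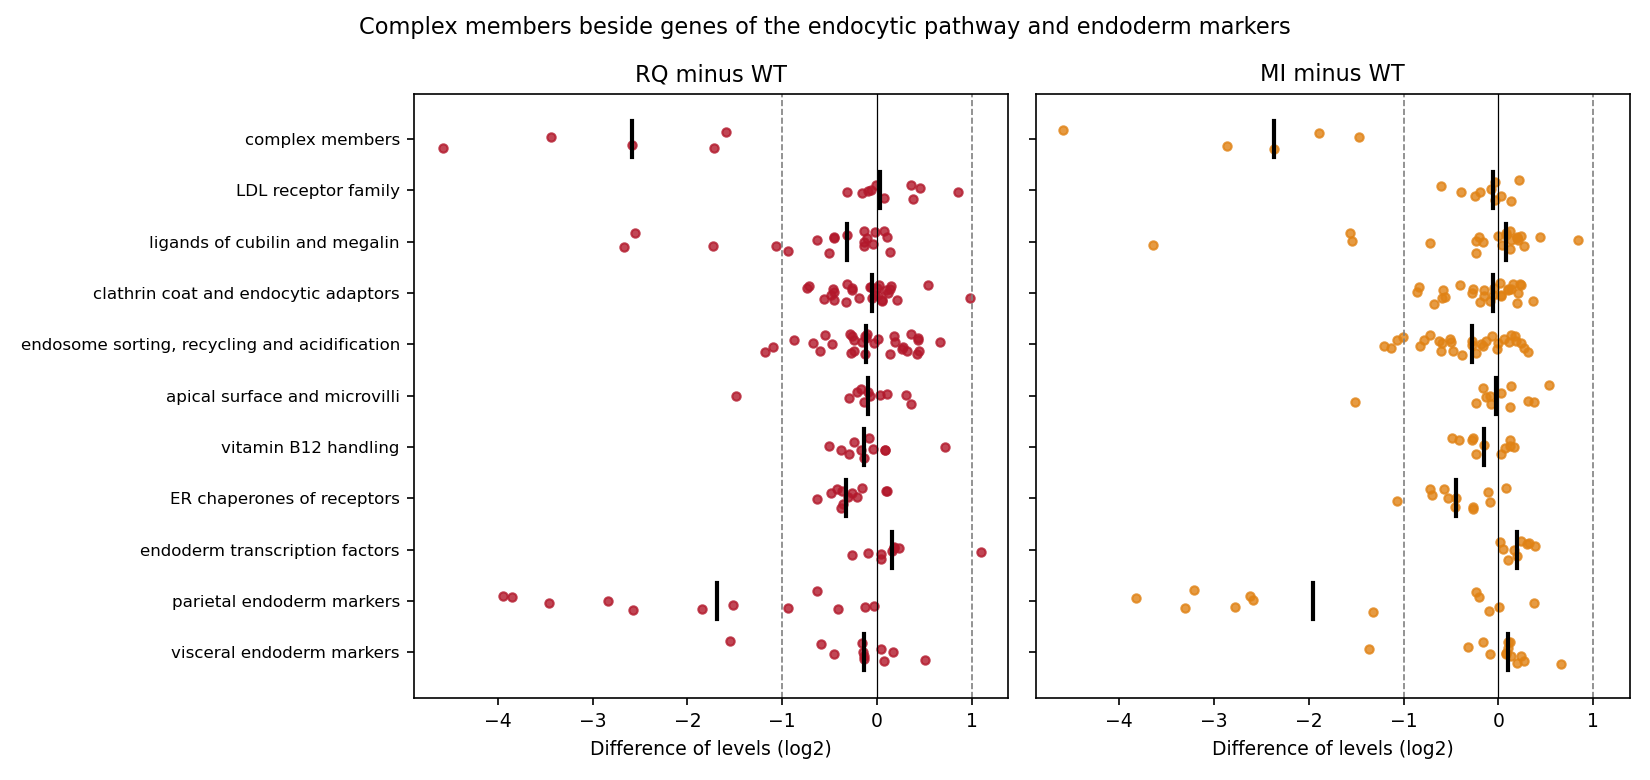
Difference in level from WT (log2, horizontal axis) of every gene read in 11 gene lists, each on its brightest probe set, with RQ on the left and MI on the right; each point is a gene, black bars are list medians and dashed lines mark 2-fold. The 5 complex genes and 7 of the parietal endoderm markers lie past 2-fold lower in both panels, while no point of the LDL receptor family or the clathrin coat does on these sets.

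Markers of the cells that make the complex were read beside it. Of 17 visceral endoderm markers outside the complex, 11 were read in RQ and 14 in MI, and 1 was at least 2-fold lower in each mutant and none higher. The summed linear signal over the 17 was 1837 in RQ and 2744 in MI, against 2336 in WT. Rhox5, the brightest of the 17 on each array, differed from WT in the same directions as these sums (-1.54 in RQ and 0.66 in MI). The median difference over the 17 was -0.05 in RQ and 0.10 in MI, so the sums do not describe the list as a whole. The secreted marker Afp read 6.96 in RQ and 7.34 in MI, against 7.10 in WT. These levels were above the upper quartile of each array (6.92 in RQ, 6.93 in MI and 6.90 in WT). Ttr was near the limit on all arrays (6.41 in RQ and 6.62 in MI, against 6.55 in WT). Its other set read differed by -0.60 in RQ and -0.44 in MI. In WT both markers were far below the brightest sets of Cubn (10.67) and Dab2 (9.69). Levels of different probe sets also depend on their probes, so this does not rank the amounts of RNA between genes. The 2 genes past 2-fold were Rhox5 in RQ (-1.54, and 0.66 in MI) and Otx2 in MI (-1.37, and 0.17 in RQ). Of 14 parietal endoderm markers, 12 were read, and 7 were at least 2-fold lower in each mutant. These were the matrix genes Lama1, Lamb1, Lamc1, Col4a1, Col4a2, Sparc and Hspg2. The other markers read, Nid1, Plat, Fst, Snai1 and Pdgfra, were short of 2-fold in both mutants. The summed signal over the 14, of which Sparc was the brightest in WT (12.37), was 2343 in RQ and 2775 in MI, against 14141 in WT. Over the 5 complex genes it was 578 in RQ and 589 in MI, against 4035 in WT. Among 12 listed markers of gut or definitive endoderm, 11 were read, and 6 were at least 2-fold lower in each mutant. Krt8, Krt18, Cldn4, Cldn6 and Spink1 were so in both, Krt19 in RQ alone and Epcam in MI alone. The others read, Shh, Pdx1, Trh and Cdh1, were short of 2-fold in both mutants. Of the pluripotency markers 8 of 20 read were higher and 1 lower in RQ, and 4 of 19 were higher and 3 lower in MI. Of the fibroblast markers none of 9 was past 2-fold in RQ, and 6 of 12 were higher in MI. No marker of blood, endothelium or kidney tubule passed 2-fold in either mutant, and of the trophoblast markers Tfap2c alone did, in RQ. The part of these cell types in the complex's values was not tested.

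No endoderm transcription factor was 2-fold lower on its brightest probe set. Of 18 on the arrays 9 were read in each comparison, and Tfap2c, which is also listed as a trophoblast marker, was higher in RQ (1.10, and 0.32 in MI). Gata6 read 6.94 in RQ and 7.08 in MI, against 7.04 in WT, and Sox17 read 6.79 in RQ and 7.06 in MI, against 7.05 in WT. Other sets of both genes, picked out after their values were seen, were lower. Gata6 set 1425464_at read 5.72 in RQ and 5.70 in MI, against 6.78 in WT, and Sox17 set 1429177_x_at read 5.72 in RQ and 5.67 in MI, against 7.14 in WT. The remaining Gata6 set differed by -0.70 in RQ and -0.55 in MI. Gata4 was not read on its brightest set, and its set 1418863_at read 5.84 in RQ and 5.89 in MI, against 6.36 in WT. For these factors the reading depends on the probe set.

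The genes whose pair of differences from WT lay nearest to each member, by Euclidean distance over the 3 arrays and 12041 genes read in both comparisons, were listed without regard to function. Nearest to Cubn were Srgn, the proteoglycan serglycin (distance 0.17), and then at larger distances Lama1 (0.996), Sparc (1.57), Col4a2 (1.71), Car4 (1.83) and Krt18 (1.86). Srgn read 6.94 in RQ and 6.69 in MI, against 11.43 in WT. The genes nearest to Dab2 were Krt18 (0.40), Col4a2 (0.44), Spink1 (0.50), Car4 (0.52), the lysosomal protease Lgmn (0.53) and Sparc (0.54). Nearest to Lrp2 were Ctsa (0.17), a lysosomal carboxypeptidase, Ip6k2 (0.23), the laminin chain Lamb1 (0.25), Glul (0.31), the cathepsin Ctsh (0.34) and the secreted peroxidase Gpx3 (0.37). Another probe set of Ctsa differed by -0.18 in RQ and -0.08 in MI, and another of Sparc by -0.25 in RQ and -0.27 in MI. Many genes lay close to Amn, among them Pcgf5 (0.02), the claudin Cldn4 (0.03), P4ha1 (0.08), Malat1 (0.10), Podxl (0.12) and Selenok (0.13), although another set of Pcgf5 differed by 0.08 in RQ and 0.18 in MI. Within the complex, Amn and Lrpap1 were closest (0.45), and Cubn and Amn were farthest apart (4.33).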

How the data were processed

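The values are deposited log2 signals of 45101 probe sets on 3 arrays, 1 per genotype. Per the labels, 6 ug of total RNA was labelled for each array. The submitters' processing notes name Partek and RMA, without versions or order of steps. RMA subtracts background, makes arrays more alike and summarises each probe set. The deposited MI values still had a narrower spread than the others. Near-background signals are compressed, and detection calls and scanner files were not used here to mark them. Probe sets were named from the supplied platform annotation (34945 with 1 symbol, 932 with several, 9211 with none or unlisted). Control probe sets (64) were kept apart. Entrez identifiers of all 5 members matched RefSeq (GRCm38.p6). A gene was represented by its brightest probe set, judged on the mean of the arrays. Differences, counts at 2-fold and the medians were computed with Python 3.11.15 (numpy 2.4.6, pandas 2.3.3), and counting was tested on simulated data. Named genes were all members, genes of each pathway list past 2-fold (or otherwise the largest 2), the 6 nearest to Cubn, Lrp2, Amn and Dab2, and some markers. The members and lists were chosen with earlier results of these data known. Alternatives were centring, quantile normalization again, lowess (span 0.3, 3 iterations, statsmodels 0.14.6), no filter or one at the 75th percentile (6.92), probe set means, leaving out _s_at, _x_at and _a_at sets, and limits of 1.5-fold and 3-fold.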

Additional observations from a re-analysis of the deposited data

How the results depend on the processing

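With 1 array per genotype no replicate could be left out, and no alternative gives a test. No paired analysis was possible because each genotype has 1 array and the labels give no replicate numbers. All 5 genes stayed counted as lower in both mutants under 7 of 9 alternatives. Leaving out the level filter and the 1.5-fold limit are among these 7, and neither could reduce the count. Without _s_at, _x_at and _a_at probe sets the count was 4 in each mutant, since Dab2 was left with its dim sets, at -0.64 in RQ and -0.49 in MI. With a 3-fold limit it was 5 in RQ and 4 in MI. Every difference of the 5 genes from WT stayed below 0 under the 5 scaling and probe set alternatives. For Cubn they ran from -4.63 to -3.60 in RQ and from -4.66 to -3.58 in MI. Since the genes were chosen for large falls, staying below 0 supports nothing by itself. The count of 0 between RQ and MI held under all 9. That says little, because Cubn, Lrp2 and Amn lay under the limit for reading on both mutant arrays and a 3-fold limit cannot raise a count of 0. Over all genes, the lower counts moved by more than 1.5 times in MI, with 193 after quantile normalization again and 198 with means of probe sets against 312, and the higher count in RQ was 102 with means of probe sets against 205. Between RQ and MI the higher count of 253 became 116 with quantile normalization again, 146 with lowess and 129 with means of probe sets, and the lower count of 65 became 106 with quantile normalization again and 42 with means of probe sets. For MI the higher count of 66 became 107 with quantile normalization again. With the 1.5-fold and 3-fold limits, the lower counts were 531 and 75 in RQ and 1028 and 69 in MI, the higher counts 844 and 34 in RQ and 246 and 21 in MI, and between RQ and MI 198 and 20 were lower and 1221 and 29 higher. Signals of Cubn, Lrp2 and Amn in both mutants, and of Dab2 in RQ, lay under the limit for reading on their brightest sets, which limits how well their ratios are known.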
